A study of Mus musculus with 21 samples.

Results

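The Siglec receptors considered here are the 5 mouse genes Cd33, Cd22, Siglec1, Siglece and Siglecg, taken by symbol from the 55401 genes of the count table, and each symbol matched 1 Ensembl identifier. Forebrain RNA was sequenced from 21 mice in 6 groups. The parental groups E2H, E3H and E4H (3 mice each) were C57BL6 mice with human APOE2, APOE3 or APOE4 in place of mouse Apoe on both chromosomes, which were 9 to 10 months old when taken. PS/E2H, PS/E3H and, for APOE4, PS/E4H mice (4 in each group) carried the same human alleles on both chromosomes and were heterozygous for the PS19 transgene, human tau with the P301S mutation under the mouse prion promoter on a B6/C3H origin, and they were taken when both hindlimbs were paralyzed. All 6 groups carried a human allele in place of mouse Apoe, so no group had the mouse gene alone, and the tau transgene, paralysis, age at death and strain background cannot be told apart when a PS19 group is set against its parental group.

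Siglecs are cell surface receptors of the immunoglobulin superfamily that bind sialic acid, the sugar that caps many glycans of proteins and lipids on the body's own cells. Most of them carry immunoreceptor tyrosine-based inhibitory motifs (ITIMs) in the cytoplasmic tail, which recruit the phosphatases SHP-1 and SHP-2 and so dampen activating signals, while others pair with the activating adaptor DAP12, the product of Tyrobp. In brain they are known mainly from microglia and from macrophages at the brain's borders, and human CD33 lies at a risk locus of Alzheimer's disease.

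The members differ in these tail motifs. In the longest coding transcript of each gene (GENCODE M21, GRCm38), the part after the most hydrophobic stretch of 19 residues was searched for an isoleucine, leucine, valine or serine, any residue, a tyrosine, any pair of residues, and an isoleucine, leucine or valine. The coded protein has 868 residues for Cd22 with 4 matches, 467 for Siglece with 1 match, and 688 for Siglecg with 3 matches. Cd33 (403 residues) and Siglec1 (1701 residues) had 0 matches, which says only that these letters were not found there. The coding bases are shown 5′ to 3′ because they set the inhibitory members apart, with the 18 bases of the motif in capitals and up to 9 bases on each side in lower case. All lie in coding exons of chromosome 7, the Cd22 and Siglece sequences on the minus strand and those of Siglecg on the plus strand. The Cd22 motifs lie at chr7:30867485-30867520 in exon 12, chr7:30867024-30867059 in exon 13, and chr7:30866591-30866626 and chr7:30866534-30866566 in exon 14 of 14. The Siglece motif lies at chr7:43651576-43651611 in exon 7 of 7. Those of Siglecg lie at chr7:43412679-43412714 in exon 11, and at chr7:43417970-43418005 and chr7:43418039-43418074 in exon 12 of 12. A match of letters is a description and not a measured phosphorylation site.
Cd22 motif 1: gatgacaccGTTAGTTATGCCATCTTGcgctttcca
Cd22 motif 2: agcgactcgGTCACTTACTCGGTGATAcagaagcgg
Cd22 motif 3: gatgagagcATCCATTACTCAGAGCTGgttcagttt
Cd22 motif 4: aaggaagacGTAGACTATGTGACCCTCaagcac
Siglece motif 1: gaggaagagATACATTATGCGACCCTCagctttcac
Siglecg motif 1: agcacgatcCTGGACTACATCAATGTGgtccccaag
Siglecg motif 2: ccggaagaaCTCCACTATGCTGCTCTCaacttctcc
Siglecg motif 3: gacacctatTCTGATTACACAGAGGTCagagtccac

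Total counts per mouse ran from 59265459 to 75932183, and the median Pearson correlation of log2 CPM (counts scaled to library size by TMM factors) of a mouse with the others of its group was 0.968 to 0.978. Mitochondrial genes held 7.25% to 10.9% of the counts. E2H replicate 2 had the highest of these shares and the lowest TMM factor, 0.940. Counts of genes are listed by the authors as whole numbers, and in 21 of 21 mice more genes held the value 4 than 3 or 5. A floor of 12 counts, 3 times this step of 4, was therefore used for detection. Xist was above the Y-linked genes in 17 mice, and the Y-linked genes were above Xist in E4H replicate 3, PS/E2H replicate 2 and PS/E4H replicates 1 and 4. The study's methods list the mice with the sexes the other way round, and no main fit has a term for sex. A list of 4 forebrain markers, Emx1 and Lhx2 among them, was expressed in every group, at a summed level of 130 to 184 CPM in parental and 103 to 146 CPM in PS19 mice. The labels do not say how the single mice of a group were related, so the p-values measure the spread between these mice.

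Per length, Cd33 was the most abundant member in parental forebrain. Its FPKM (fragments scaled to transcript length and library size) had a median of 1.13 over the 9 parental mice, against 0.469 for Siglece, 0.10 for Cd22, 0.0766 for Siglec1 and 0.0142 for Siglecg. Over the 12 PS19 mice the median FPKM was 1.77 for Cd33, 0.982 for Cd22, 0.490 for Siglece, 0.206 for Siglec1 and 0 for Siglecg. Cd22 was below Siglece in 9 of 9 parental mice and above it in 11 of 12 PS19 mice, and in PS/E4H replicate 1 it was the highest of the 5. The related genes Mag, the myelin-associated glycoprotein, and Siglech, a marker of microglia, had group means of 41.3 to 61.6 and 3.46 to 5.24 FPKM, above the mean of every member in every group.

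**Figure D1:**
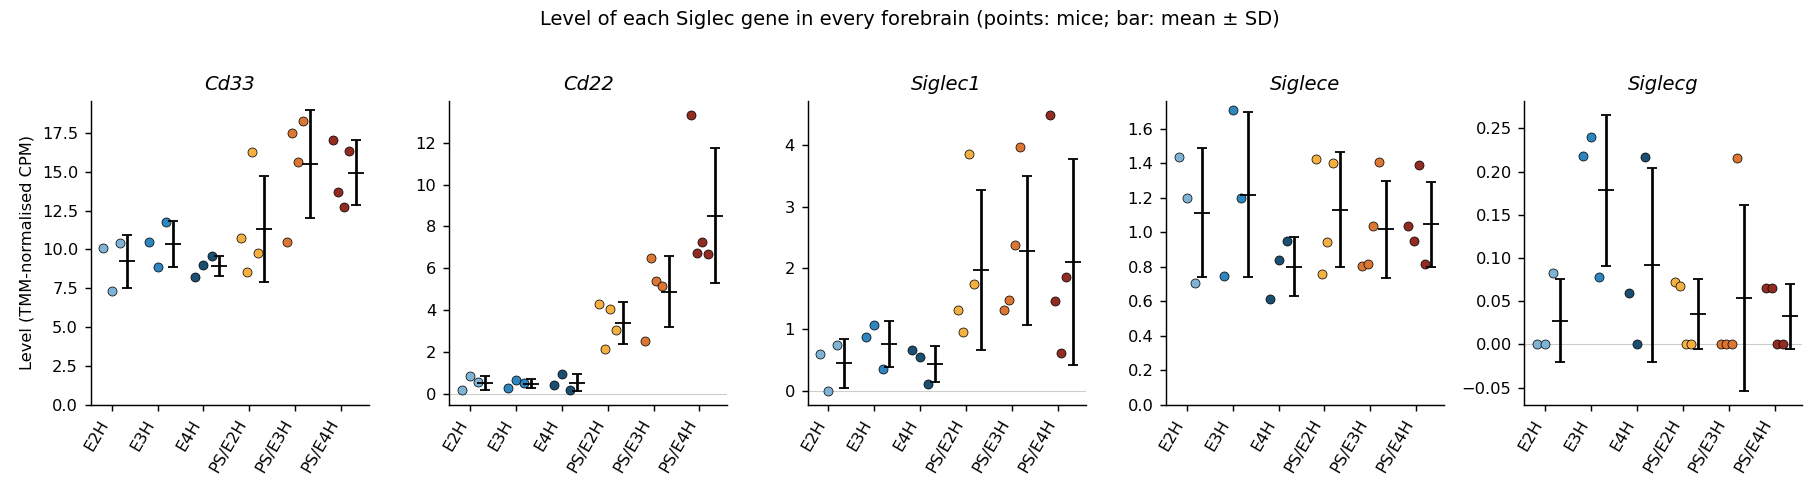
TMM-normalised CPM of Cd33, Cd22, Siglec1, Siglece and Siglecg in each mouse of the 6 groups, each panel with its own vertical axis. Points are mice, and the bars beside them are the mean and SD of 3 or 4 mice, so that a bar can reach below 0 where counts are few. For Cd22 the 12 PS19 mice lie at 2.15 to 13.3 CPM and the 9 parental mice at 0.212 to 0.984 CPM, while the Siglece groups share 1 range.

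Cd22 had the largest PS19 difference of the members. It encodes a receptor best known as an inhibitor of B cell receptor signalling, and microglia also make it. Its level was 0.212, 0.853 and 0.566 CPM in E2H, 0.286, 0.686 and 0.547 CPM in E3H, and 0.463, 0.984 and 0.217 CPM in E4H mice. It was 4.31, 2.15, 4.07 and 3.09 CPM in PS/E2H, 2.53, 6.49, 5.40 and 5.17 CPM in PS/E3H, and 13.3, 6.76, 7.28 and 6.69 CPM in PS/E4H mice. Every one of the 12 PS19 mice lay above the highest of the 9 parental mice, and the highest value belonged to PS/E4H replicate 1. "Called" means a fold change of 2 or more together with a p under 0.05 after Benjamini-Hochberg adjustment over all genes tested, from the quasi-likelihood F test of edgeR.

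Cd22 was called in each APOE line. Its level rose from 0.544 ± 0.321 CPM (SD, n = 3) in E2H to 3.41 ± 0.990 CPM (SD, n = 4) in PS/E2H mice, a log2 fold change of 2.66 (SE 0.443, 95% interval 1.67 to 3.64, adjusted p = 0.0319 by edgeR). From E3H, at 0.506 ± 0.203 CPM, to PS/E3H, at 4.90 ± 1.68 CPM, the log2 fold change was 3.26 (SE 0.389, 2.40 to 4.12, adjusted p = 0.00280 by edgeR). From E4H, at 0.554 ± 0.391 CPM, to PS/E4H, at 8.51 ± 3.22 CPM, it was 3.93 (SE 0.468, 2.89 to 4.97, adjusted p = 0.000780 by edgeR), a 15.3-fold difference. Without E4H replicate 2, the parental mouse with the highest Cd22, it was 4.66 (adjusted p = 0.00109 by edgeR). With the 3 lines in 1 fit that allowed each line its own level, the PS19 mice were 9.80-fold higher (log2 fold change 3.29, SE 0.303, adjusted p = 8.19e-08 by edgeR). Cd22 was the 1 member called of 4 tested in PS/E2H vs E2H, of 5 in PS/E3H vs E3H and of 4 in PS/E4H vs E4H, where 0.485%, 1.32% and 2.98% of all tested genes were called. In PS/E2H vs E2H the adjusted p ran from 0.0338 to 0.165 (edgeR) over the 7 fits that each left out a mouse, and the call was lost in 5 of them: without E2H replicate 1 or 3, or without PS/E2H replicate 1, 3 or 4. The GENCODE gene Gm29439 overlaps Cd22 on the other strand, and whether the counting used strand is not given in the sources used here.

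Cd33 differed by less than 2-fold. It is the myeloid receptor after which the CD33-related Siglecs are named. Its level was 10.1, 7.30 and 10.4 CPM in E2H, 10.5, 8.84 and 11.8 CPM in E3H, and 8.24, 9.0 and 9.58 CPM in E4H mice. It was 10.7, 8.52, 16.3 and 9.78 CPM in PS/E2H, 10.5, 17.5, 15.7 and 18.3 CPM in PS/E3H, and 17.0, 13.7, 12.7 and 16.3 CPM in PS/E4H mice. The values of PS/E4H and E4H did not overlap, those of the other lines did, and 8 of 12 PS19 mice were above the highest parental mouse.

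In PS/E4H vs E4H mice Cd33 was 1.68-fold higher (log2 fold change 0.74, SE 0.127, 95% interval 0.46 to 1.03, adjusted p = 0.00467 by edgeR), past the p threshold and short of the 2-fold limit. Without that limit 15.6% of all tested genes passed in this comparison, and 2 of 4 members. In PS/E3H vs E3H the log2 fold change was 0.56 (SE 0.181, adjusted p = 0.101 by edgeR) and in PS/E2H vs E2H 0.29 (SE 0.224, adjusted p = 0.741 by edgeR), and neither passed in that fit. In PS/E3H vs E3H Cd33 passed the p threshold with DESeq2 (adjusted p = 0.0190) and without PS/E3H replicate 1 (0.71, adjusted p = 0.00486 by edgeR). With the 3 lines together it was 0.54 (SE 0.118, 0.29 to 0.78, adjusted p = 0.00213 by edgeR), a 1.45-fold difference, where 21% of all tested genes passed without the fold limit.

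Siglec1, also called sialoadhesin or CD169, is a macrophage receptor with a long extracellular part and is known as an interferon-induced gene. Its level was 0.598, 0 and 0.745 CPM in E2H, 0.870, 1.07 and 0.352 CPM in E3H, and 0.672, 0.545 and 0.109 CPM in E4H mice. It was 1.31, 0.958, 3.86 and 1.74 CPM in PS/E2H, 1.31, 1.48, 2.37 and 3.98 CPM in PS/E3H, and 4.5, 1.46, 0.613 and 1.85 CPM in PS/E4H mice. E2H replicate 2 had 0 counts and E4H replicate 3 had 8, under the floor, and 10 of 12 PS19 mice were above the highest parental mouse.

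In single lines Siglec1 was not called by edgeR. The log2 fold change was 2.10 in PS/E2H vs E2H (95% interval 0.21 to 3.99, adjusted p = 0.402 by edgeR) and 1.57 in PS/E3H vs E3H (0.53 to 2.61, adjusted p = 0.0816 by edgeR), where the groups did not overlap. It was 2.25 in PS/E4H vs E4H (0.67 to 3.83, adjusted p = 0.0573 by edgeR), where PS/E4H replicate 3 lay within the E4H range. In PS/E3H vs E3H it was called without PS/E3H replicate 1 (adjusted p = 0.0312 by edgeR), and in PS/E4H vs E4H without PS/E4H replicate 3 (adjusted p = 0.0237 by edgeR). Without PS/E4H replicate 1, the mouse with the highest Siglec1, the log2 fold change in PS/E4H vs E4H was 1.57 (adjusted p = 0.122 by edgeR). DESeq2 called Siglec1 in PS/E3H vs E3H (adjusted p = 0.00724) and in PS/E4H vs E4H (adjusted p = 0.00255). With the 3 lines together Siglec1 was called, 3.92-fold higher in PS19 mice (log2 fold change 1.97, SE 0.448, 1.04 to 2.90, adjusted p = 0.00277 by edgeR). In that fit 2 of 5 members were called, Cd22 and Siglec1, against 2.6% of all tested genes. The median log2 fold change of the 5 members was 0.54, and that of all tested genes was -0.01.

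Siglece, an inhibitory CD33-related receptor of myeloid cells, had group means of 0.80 to 1.22 CPM. The parental mice ran from 0.612 to 1.71 CPM with a median of 0.95, and the PS19 mice from 0.756 to 1.43 CPM with a median of 0.992. No PS19 mouse was above the highest parental mouse. Its log2 fold change was 0.02 (95% interval -0.76 to 0.81, adjusted p = 0.992 by edgeR) in PS/E2H vs E2H, -0.28 (-1.04 to 0.49, adjusted p = 0.716 by edgeR) in PS/E3H vs E3H and 0.39 (-0.30 to 1.08, adjusted p = 0.441 by edgeR) in PS/E4H vs E4H. With the 3 lines together it was 0.05 (-0.35 to 0.45, adjusted p = 0.902 by edgeR), an interval that leaves out a 2-fold change in either direction.

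Siglecg, the mouse counterpart of human SIGLEC10 and mainly a B cell receptor, was close to the limit of detection. It had 0 counts in 10 of 21 mice and at most 16, and it was above the floor of 12 counts in 4 mice, E3H replicates 1 and 2, E4H replicate 3 and PS/E3H replicate 4. No fold is given for it. It passed the filter on low counts in 5 fits and was called in 0 of them. Of the 50-base windows of its transcripts, 4.48% occur in another gene, against 0% for Siglece, 0.394% for Cd33, 0.510% for Cd22 and 1.33% for Siglec1.

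**Figure D2:**
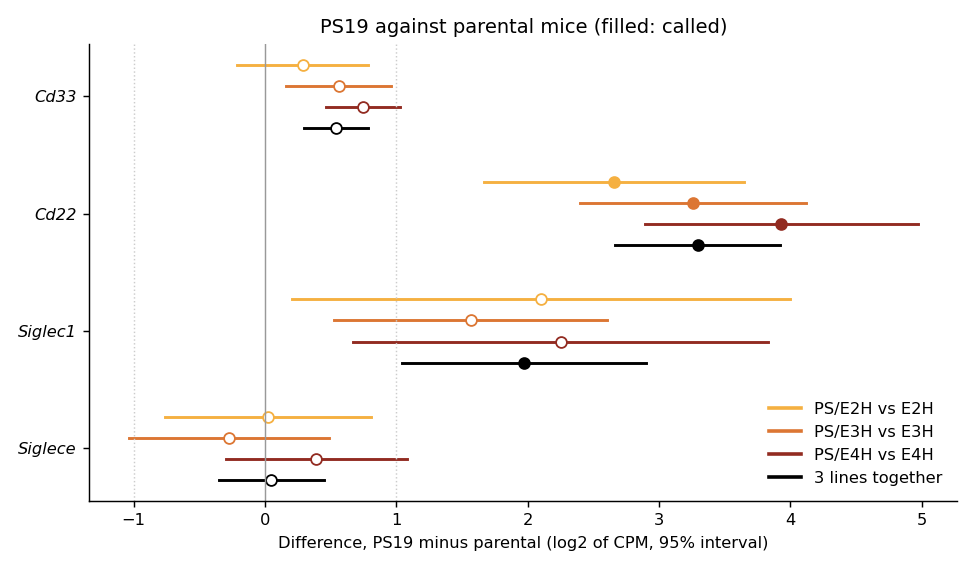
Difference between PS19 and parental mice for 4 members, as log2 fold change of CPM with its 95% interval, for the 3 lines and for the fit of the 3 lines together. Filled points were called, and dotted lines mark a 2-fold change. The Cd22 intervals start at 1.67 or above, those of Siglece all include 0, and Cd33 lies between with 0.29 to 0.74.

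The PS19 mice also differed in markers of the cells that express Siglecs, so the members were set beside them. In RNA of a whole forebrain, more cells of a type and more RNA per cell cannot be told apart. The summed level of 10 microglial genes (Tmem119, P2ry12, P2ry13, Cx3cr1, Csf1r, Aif1, Sall1, Itgam and Fcrls among them) was 403 to 497 CPM in parental mice, 455 to 800 CPM in PS/E2H, 595 to 843 CPM in PS/E3H and 755 to 935 CPM in PS/E4H mice. With the 3 lines together 3 of these 10 were called higher, 7 passed the p threshold, and their median log2 fold change was 0.74. Csf1r, the receptor of the microglial growth factors, was at 0.81 (SE 0.0639, adjusted p = 8.87e-09 by edgeR).

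Per 1000 CPM of these microglial genes, Cd33 was at a median of 22.4 CPM (14.7 to 26.8) in parental and 18.4 CPM (12.2 to 23.5) in PS19 mice, and the ranges overlapped. Cd22 was at 1.24 CPM (0.509 to 2.43) in parental and 6.90 CPM (3.07 to 14.3) in PS19 mice, and the ranges did not overlap. Siglec1 was at 1.48 CPM (0 to 2.61) in parental and 2.16 CPM (0.799 to 4.83) in PS19 mice, again with overlap. Siglece was at 2.23 CPM (1.5 to 4.17) in parental and 1.30 CPM (0.927 to 3.08) in PS19 mice, with overlap. On this scale the medians of Cd22 and Siglec1 were higher in PS19 mice, those of Cd33 and Siglece were lower, and no test was run on the ratios.

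**Figure D3:**
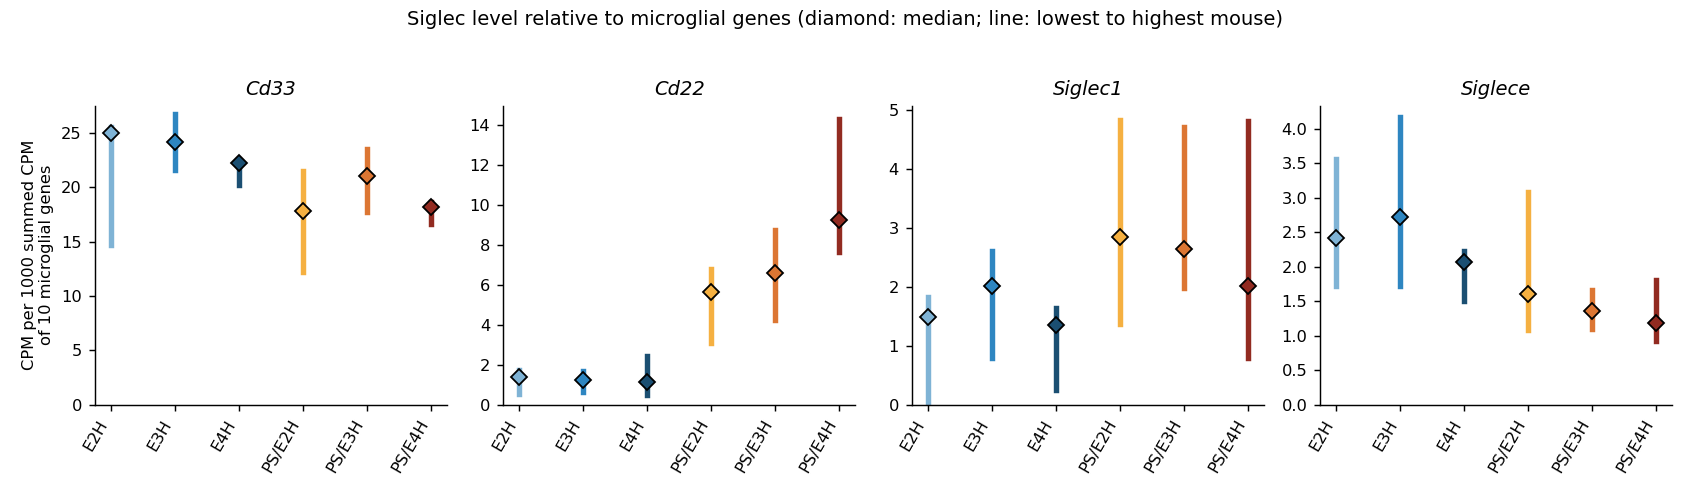
CPM of Cd33, Cd22, Siglec1 and Siglece per 1000 summed CPM of the 10 microglial genes in the 6 groups. Diamonds are group medians and lines run from the lowest to the highest of 3 or 4 mice. The Cd22 lines of the PS19 groups start at 3.07, above the highest parental value of 2.43, and the Cd33 lines of PS19 and parental groups overlap.

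Markers of other cells that make members moved with them to different degrees, and their part in the results was not tested. Of 8 genes of disease-associated microglia 6 were called higher with the 3 lines together, at a median log2 fold change of 2.07, with Itgax at 4.33 (SE 0.237) and Clec7a at 4.52 (SE 0.273). The Cd22 difference of 3.29 was above that median. Border-associated macrophages, a known source of Siglec1, had 4 of 7 genes called higher, with Mrc1 at 1.29 (SE 0.154), and a summed level of 7.86 to 14.9 CPM in parental and 18.4 to 35.8 CPM in PS19 mice. Monocyte and neutrophil genes had 1 of 5 tested called, Ccr2 at 1.11 (SE 0.365), and a summed level of 0.662 to 9.42 CPM in parental and 1.26 to 25.8 CPM in PS19 mice.

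B cells are the best known source of Cd22 and Siglecg. The summed level of 6 B cell genes, among them Cd79a, Cd79b, Ms4a1, Pax5 and Blk, was 0.365 to 2.10 CPM in parental and 0.887 to 3.82 CPM in PS19 mice, and 0 of 5 tested genes passed the adjusted p threshold in edgeR with the 3 lines together, where 1 had an unadjusted p under 0.05 and DESeq2 called 1, Cd79a. The median log2 fold change of the 5 tested genes in that fit was 1.06, and they ran from 0.03 to 2.27. Ms4a1 and Blk were each at or under the floor in 20 of 21 mice, Cd79a in 7, Cd79b in 4 and Pax5 in 3. Cd22 had 16 to 74 counts in parental and 128 to 824 counts in PS19 mice, and the part of B cells in its level was not tested. With the 3 lines together T cell genes had 0 of 5 called by edgeR, 1 at an unadjusted p under 0.05 and 1 called by DESeq2, Cd8a. Cd3e, Cd3g, Cd3d and Cd8a were at or under the floor in 14 to 17 mice, and the remaining T cell gene had 377 to 826 counts. The summed level of the T cell genes was 7.66 to 11.2 CPM in parental and 6.59 to 11.7 CPM in PS19 mice. In the same fit the lists of oligodendrocytes, neurons and astrocytes had 0 genes called by edgeR and by DESeq2. Their genes passing the p threshold were 3 of 5 higher, 1 of 5 higher with 3 lower, and 4 of 4 higher, and 3 of 4 forebrain markers were lower. Of the hindbrain and spinal cord genes 0 of 2 tested were called by either tool, and 1 had an unadjusted p under 0.05. In PS/E4H vs E4H alone, edgeR called 1 of 2 tested T cell genes (log2 fold change 3.90) and 1 of 4 astrocyte genes, both higher in PS/E4H mice. DESeq2 called 0 of these T cell genes and 1 of these astrocyte genes.

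Among the other Siglec genes, Siglecf, an inhibitory receptor known from eosinophils, alveolar macrophages and activated microglia, was called in all 3 lines. Its group means were 0.443 to 0.685 CPM in parental and 2.28 to 2.78 CPM in PS19 mice, with a log2 fold change of 2.29 with the 3 lines together (SE 0.195, adjusted p = 2.70e-08 by edgeR). Mag was at 0.28 (SE 0.0903, adjusted p = 0.0269) and Siglech at 0.29 (SE 0.110, adjusted p = 0.0696), neither called by edgeR. Siglec15 had counts in 2 of 21 mice, 5 and 8.

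Most of the genes that act downstream of the receptors were higher in PS19 mice. Of 13 adaptors and signalling genes, 4 were called and 10 passed the p threshold, all higher, with a median log2 fold change of 0.82. Tyrobp, the DAP12 adaptor, was at 1.57 (SE 0.146), Ptpn6, which encodes SHP-1, at 1.39 (SE 0.139), Vav1, an exchange factor, at 1.16 (SE 0.118) and Inpp5d, which encodes the phosphatase SHIP1, at 0.83 (SE 0.0793). The adjusted p of these genes by edgeR was 1.03e-07 for Tyrobp, 2.50e-07 for Ptpn6, 2.97e-07 for Vav1 and 1.41e-07 for Inpp5d, and the last was short of the 2-fold limit.

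Of the genes that make and remove sialic acid, 0 were called in 3 lists, by edgeR or by DESeq2. Of 6 genes of sialic acid synthesis 0 were called and 1 passed the p threshold, Nans, the sialic acid synthase, at 0.23 (SE 0.0664, adjusted p = 0.0147 by edgeR). Of 18 tested sialyltransferases, which add sialic acid to glycans, 0 were called, and 5 were higher and 3 lower on the p threshold. St6galnac5, which sialylates gangliosides, was at -0.52 (SE 0.0681) and St3gal1 at -0.36 (SE 0.0585), while St6gal1, which makes the α2,6 linkage preferred by Cd22, was at 0.30 (SE 0.0542) and St3gal6 at 0.30 (SE 0.0569). Of 4 sialidases, which remove it, 0 were called and Neu4 passed the p threshold at 0.39 (SE 0.110, adjusted p = 0.0124 by edgeR). Of 4 protein carriers of ligands, Ptprc, which encodes CD45, was called at 1.31 (SE 0.159, adjusted p = 2.91e-06 by edgeR), and Selplg and Cd24a passed the p threshold at 0.29 and 0.62.

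Of 10 genes of the interferon response, the program with which Siglec1 is known to be induced, 7 were called and all 10 passed the p threshold with the 3 lines together, at a median log2 fold change of 1.18. By line, 6 of the 10 were called in PS/E2H vs E2H (median log2 fold change 1.72) and 6 in PS/E4H vs E4H (median 1.26). In PS/E3H vs E3H edgeR and DESeq2 called 0 of them (median 0.55), 4 had an unadjusted p under 0.05 by edgeR and 3 passed the p threshold with DESeq2, beside a log2 fold change of 1.57 for Siglec1. In the tests of the difference between lines edgeR called 0 of the 10. At an unadjusted p under 0.05 by edgeR there were 8 for APOE2 minus APOE3, 2 for APOE4 minus APOE3 and 1 for APOE4 minus APOE2, and DESeq2 called 2, 0 and 1. Ifit1 was at 1.45 (SE 0.215), Usp18 at 1.41 (SE 0.230) and Ifit3 at 1.22 (SE 0.18), which compares with 1.97 (SE 0.448) for Siglec1.

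**Figure D4:**
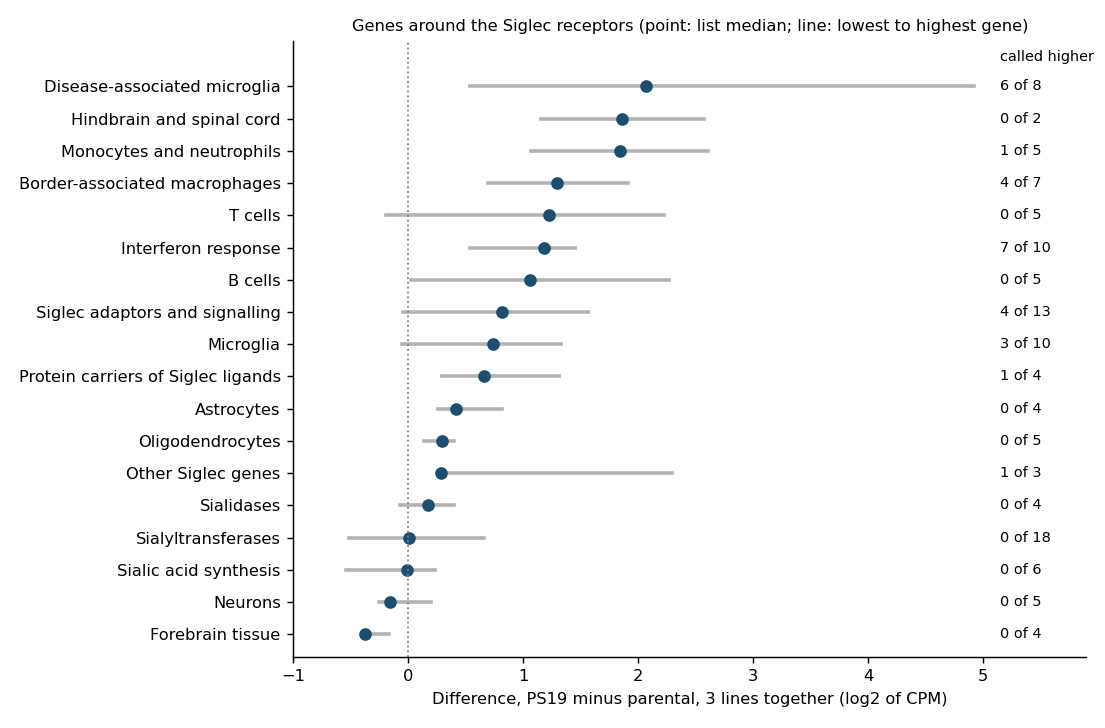
Difference between PS19 and parental mice with the 3 lines together, as log2 fold change of CPM, for 18 lists of genes. Points are list medians, lines run from the lowest to the highest tested gene of a list, the numbers at the right give genes called higher of genes tested, and the dotted line is the median of all tested genes. Disease-associated microglia have the highest median, 2.07, and the sialyltransferases lie around 0 with 0 of 18 called.

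The APOE alleles were then compared within parental and within PS19 mice. The paper reports later paralysis in homozygous PS19 mice with APOE3 than with APOE2 or APOE4, and PS19 mice were taken at paralysis. Ages of the sequenced PS19 mice are not given in the sources used here. Allele and age at death therefore cannot be told apart in comparisons between lines that include PS19 mice. Y-linked genes were above Xist in 1 of 4 PS/E2H, 0 of 4 PS/E3H and 2 of 4 PS/E4H mice. In parental mice the group means of Cd33 ran from 8.94 ± 0.672 CPM in E4H to 10.4 ± 1.48 CPM in E3H, those of Cd22 from 0.506 to 0.554 CPM, those of Siglec1 from 0.442 to 0.764 CPM and those of Siglece from 0.80 to 1.22 CPM, and neighbours in each order overlapped. In E2H vs E3H, E4H vs E3H and E4H vs E2H mice 0 members were called by edgeR, 0 had an unadjusted p under 0.05 and 0 were called by DESeq2, where edgeR called 0.144%, 0.1% and 0.187% of all genes tested.

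In PS19 mice Cd22 was lowest in PS/E2H and highest in PS/E4H. The ranges of PS/E2H and PS/E3H overlapped, and all 4 PS/E4H mice were above all mice of both other groups. Cd22 was 2.48-fold higher in PS/E4H than in PS/E2H mice (log2 fold change 1.31, SE 0.272, 95% interval 0.72 to 1.91, unadjusted p = 0.000497, adjusted p = 0.158 by edgeR), which did not pass the adjustment over all genes. The adjusted p ran from 0.0886 to 0.396 over 9 alternative settings, and DESeq2 called the gene (adjusted p = 0.000348). PS/E4H vs PS/E3H gave 0.80 (0.14 to 1.46, adjusted p = 0.759 by edgeR), and PS/E2H vs PS/E3H gave -0.51 (-1.16 to 0.13, adjusted p = 0.485 by edgeR). Without PS/E4H replicate 1, the mouse with the highest Cd22, PS/E4H vs PS/E2H gave 1.01 (adjusted p = 0.294 by edgeR) and PS/E4H vs PS/E3H 0.50 (adjusted p = 0.613 by edgeR). With a term for sex these 2 were 1.32 (adjusted p = 0.305 by edgeR) and 0.53 (adjusted p = 0.725 by edgeR). These comparisons share groups of mice, so they are not independent. Cd33 was at 11.3 ± 3.42 CPM in PS/E2H, 15.5 ± 3.50 CPM in PS/E3H and 15 ± 2.07 CPM in PS/E4H mice, with overlap between neighbours, and PS/E4H vs PS/E2H gave 0.39 (-0.01 to 0.80, adjusted p = 0.420 by edgeR). Group means of Siglec1 were 1.97 to 2.29 CPM and those of Siglece 1.02 to 1.13 CPM, all overlapping. In PS/E2H vs PS/E3H, PS/E4H vs PS/E3H and PS/E4H vs PS/E2H mice 0 members were called by edgeR, where 0.108%, 0.0197% and 0.109% of all genes tested were called, DESeq2 called 0, 0 and 1, and Cd22 alone had an unadjusted p under 0.05 in the last 2.

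Whether the PS19 difference itself differed between lines was tested as an interaction, without a fold limit. This test does not separate the allele from age at death in the PS19 mice. For Cd22 the difference was larger by 1.27 on the log2 scale in the APOE4 than in the APOE2 line (SE 0.659, 95% interval -0.13 to 2.67, adjusted p = 0.539 by edgeR), and for Cd33 by 0.45 (SE 0.272, -0.13 to 1.03, adjusted p = 0.597 by edgeR). In the 3 interactions 0 members passed, 0 had an unadjusted p under 0.05 and 0 passed in DESeq2, and 0% of all genes tested passed in edgeR. At an unadjusted p under 0.05 edgeR gave 1265 genes for APOE2 minus APOE3, 847 for APOE4 minus APOE3 and 2223 for APOE4 minus APOE2. The 95% intervals of Cd22 and Cd33 above include 0, and the size of interaction that these groups could show was not tested.

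The members lie in 3 places of the mouse genome (GRCm38). Siglecg (chr7:43408204-43418358), Cd33 (chr7:43524216-43544428) and Siglece (chr7:43651070-43660161) share a cluster on chromosome 7, Cd22 lies at chr7:30865402-30880342, and Siglec1 at chr2:131069220-131086765. The 4 genes on chromosome 7 are 11.2 Mb (Cd22) to 24.0 Mb (Siglece) from Apoe, the gene replaced in all 6 groups. Within the cluster Cd33 and Siglece differed in their PS19 values, at 0.54 (SE 0.118) and 0.05 (SE 0.192) with the 3 lines together, and this difference between genes was not tested.

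The 250 bases before the start of Cd22 (chr7:30879029-30879278, minus strand) and Cd33 (chr7:43533172-43533421, minus strand) are shown from RefSeq (GRCm38.p6). The start that RefSeq gives for these genes lies inside the GENCODE gene whose coordinates are printed above, so these windows are not upstream of the longest GENCODE span. They are shown as the upstream sequences of the chromosome 7 members that passed the p threshold. The RefSeq table held such windows for Cd22, Cd33, Siglece and Siglecg. Both strands were searched for GAGGAAGT, a core of the site bound by the myeloid factor PU.1, and for the shorter AGGAAGT inside it. The shorter one is a core of the ETS family of factors and is not specific to PU.1. GAAANNGAA, a core of the interferon-stimulated element, was searched as well. None of these motifs was found in the windows of Cd22, Cd33, Siglece and Siglecg, so no base is in capitals. Of 32851 such windows 2.44%, 7.69% and 7.13% held these motifs. The absence says nothing about the factors beyond these letters.
Cd22 upstream sequence: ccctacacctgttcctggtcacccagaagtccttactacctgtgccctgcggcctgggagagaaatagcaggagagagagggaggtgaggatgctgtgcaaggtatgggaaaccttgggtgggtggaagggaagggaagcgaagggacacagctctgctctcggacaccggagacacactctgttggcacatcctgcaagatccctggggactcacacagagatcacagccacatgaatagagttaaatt
Cd33 upstream sequence: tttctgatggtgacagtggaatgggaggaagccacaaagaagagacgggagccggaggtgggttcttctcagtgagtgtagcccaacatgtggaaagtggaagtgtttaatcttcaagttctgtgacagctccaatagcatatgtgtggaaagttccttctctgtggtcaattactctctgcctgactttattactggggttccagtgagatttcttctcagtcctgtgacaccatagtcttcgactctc

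For each member the 3 genes with the most similar values over the 12 PS19 mice were listed, by Pearson's r of log2 CPM among 22863 genes, as a description of mice that share depth and disease state. For Cd33 they were Tmem123 (r = 0.956), Lamp2 (0.955) and Cpt1a (0.952), and over the 9 parental mice r was 0.850, -0.01 and 0.366. For Cd22 they were Dnah6 (0.933), Cd3g (0.924) and Rasal3 (0.916), against -0.03, 0.116 and 0.316 in parental mice, and Cd3g was at or under the floor in 16 of 21 mice. For Siglec1 they were Slfn4 (0.967), Trip6 (0.940) and Slc43a3 (0.928), against 0.348, 0.684 and 0.506. For Siglece they were Gm2990 (0.878), AI661453 (0.875) and 2310074N15Rik (0.873), against 0.369, -0.29 and -0.31, and for Siglecg, which is near the floor, 4933424G06Rik (0.890), C630004M23Rik (0.848) and Gm47075 (0.838), against 0.508, -0.44 and -0.34.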

How the data were processed

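The authors made stranded poly(A) libraries from forebrain RNA, and the submitters' processing notes name cutadapt, HISAT2, StringTie, DESeq2 and edgeR, with the build GRCm38.p5. They deposited estimated counts per gene, whole numbers derived from StringTie output without normalization, for 55401 genes, and FPKM values per gene from StringTie for the 37538 genes with any count. How the counts were made from StringTie output, and whether strand was used, are not given in the sources used here. The deposited tables left 0 sample columns unmapped.

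Groups and replicate numbers come from the sample titles. The members and lists of genes were chosen with earlier results of these data known. All 5 members are named, and up to 4 genes per list are named by the smallest unadjusted p with the 3 lines together, plus any called between APOE alleles, which were 0. Siglec5 and Siglecl2 matched no gene, and St6galnac2 matched 2 identifiers and was left out. Other genes of the marker lists are named only as members of a list or for their counts. Some genes of these lists, counted in the totals, are not reported here by name.

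Each comparison of 2 groups was fitted on its own mice with edgeR 4.0.16 (R 4.3.3), using TMM factors, filterByExpr (minimum count 10, minimum total 15) and the quasi-likelihood F test, with p adjusted over all genes tested. SE is the absolute log2 fold change divided by the square root of F. The fit of the 3 lines together had line as a term. Alternatives were DESeq2 1.42.0, RLE size factors, no count filter, no fold limit, a fit of all 6 groups, a term for sex, a replicate block, limma 3.58.1 on log2(FPKM + 1) and log2(FPKM + 0.1), and each mouse left out. Counts divided by 4 were added after the data were seen. The edgeR fits were also run on simulated counts, with changes placed only in genes of higher counts and a fixed spread between mice. That setting does not cover members with few counts, such as Siglece, Siglecg and, with the 3 lines together and in PS/E4H vs E4H, Siglec1.

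Same-numbered mice of 2 groups deviated together in every pair (r over 0.1) in 0 of 9 comparisons, so the numbers were not taken to pair mice. In PS/E2H vs E2H, though, 3 of 3 pairs had their highest r with their own number, at 0.0182 to 0.0946. In each other comparison this held for at most 1 pair. Total counts ran from 59265459 to 75932183 per mouse. No pair of mice within a group was identical, and their chi-square per gene on counts divided by 4 was 5.53 to 23.9 over 27 pairs. Intervals from the fits carry the spread between mice.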

Additional observations from a re-analysis of the deposited data

Results flagged for a closer look

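Cd22 in PS/E4H replicate 1, at 13.3 CPM, stood apart from the other 3 PS/E4H mice, which were at 6.69 to 7.28 CPM. Its gap to the next mouse was 0.911 of the group's range, above Dixon's 95% critical value for 4 samples. Y-linked genes were above Xist in this mouse, as in PS/E4H replicate 4, which was at 6.69 CPM. Without it the log2 fold change of Cd22 in PS/E4H vs E4H was 3.64 (adjusted p = 0.00141 by edgeR) and the gene was still called. Siglecg in PS/E3H replicate 4, at 0.215 CPM from 15 counts, stood above the other 3 PS/E3H mice, which had 0 counts. With 15 groups of 4 examined at a 95% critical value, chance flags about 1 group in 20.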

How the results depend on the processing

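The number of members called was 1 in PS/E2H vs E2H mice and 0 with no count filter, with the replicate block and with limma on log2(FPKM + 1), and 0 to 1 with each mouse left out. In PS/E3H vs E3H it was 1, and 2 with DESeq2, 0 with limma on log2(FPKM + 1) and 1 to 2 with each mouse left out. In PS/E4H vs E4H it was 1, and 2 with no limit on the fold change, with DESeq2, with the replicate block and with counts divided by 4, and 1 to 2 with each mouse left out. In PS/E4H vs PS/E2H it was 0, and 1 with DESeq2. With the 3 lines together it was 2, 3 with no limit on the fold change (Cd33 added), and 0 with limma on log2(FPKM + 1), where the pseudocount is above the FPKM of most members and the log2 differences of Cd22 (0.84, adjusted p = 4.68e-06) and Siglec1 (0.24, adjusted p = 0.00871) fell short of the 2-fold limit. The number of members called did not move in the other comparisons and settings run. The replicate block gave Siglece a log2 fold change of -0.088 in PS/E2H vs E2H and -0.0059 with the 3 lines together, against 0.02 and 0.05 without it. With each mouse left out Siglece ran from -0.22 to 0.25 in PS/E2H vs E2H, from -0.53 to 0.0488 in PS/E3H vs E3H and from -0.024 to 0.16 with the 3 lines together. Replicate numbers were not taken to pair the mice. With the block, Cd22 in PS/E2H vs E2H was no longer called (adjusted p = 0.0566 by edgeR) and Siglec1 in PS/E4H vs E4H was called (adjusted p = 0.0267 by edgeR). The block left the other calls of the members as they were. In PS/E2H vs E2H 246 of all genes passed the p threshold with the block, against 155 without it.

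Counts of all genes called moved more. They were 100 in PS/E2H vs E2H (31 with limma on log2(FPKM + 1), 252 with DESeq2), 281 in PS/E3H vs E3H (59 and 401), 621 in PS/E4H vs E4H (132 and 709) and 595 with the 3 lines together (81, and 645 with one fit of all 6 groups). Between APOE alleles they were 30, 21 and 39 in parental mice (16, 11 and 23 with limma on log2(FPKM + 1), 75, 32 and 86 with DESeq2). In PS19 mice they were 22 in PS/E2H vs PS/E3H (14 and 67), 4 in PS/E4H vs PS/E3H (0 with the replicate block, 22 with DESeq2) and 22 in PS/E4H vs PS/E2H (9 and 86), and in the interactions 0 (8, 11 and 118 with DESeq2). With each mouse left out the counts of all genes ran from 30 to 99 in PS/E2H vs E2H (30 and 31 without E2H replicates 1 and 3, 43 and 58 without PS/E2H replicates 1 and 3), from 77 to 494 in PS/E3H vs E3H (77, 126 and 96 without E3H replicates 1, 2 and 3, 494 and 149 without PS/E3H replicates 1 and 4), from 384 to 702 in PS/E4H vs E4H (384 without E4H replicate 2) and from 519 to 659 with the 3 lines together. They ran from 13 to 17 in E4H vs E3H (13 without E3H replicate 1), from 14 to 20 in PS/E2H vs PS/E3H and 14 to 23 in PS/E4H vs PS/E2H (14 without PS/E2H replicate 1 in both), from 0 to 6 in PS/E4H vs PS/E3H and from 0 to 3 in the interactions. The shares of all genes printed beside the members move with these counts. The cause of these moves was not tested. A term for sex could not be fitted in PS/E3H vs E3H and E2H vs E3H, whose mice are of 1 sex by Xist. Siglecg, at 16 counts or fewer, and the parental levels of Cd22 and Siglec1, at 74 counts or fewer, are limited by depth.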
